A study of Mus musculus with 8 samples.

Results

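Histone genes were followed as a group of 66 genes among 34796 gene names on the array. Members were all non-control probes whose name begins with Hist1h, Hist2h, Hist3h, Hist4h, H2af, H3f or H1f, and each gene was represented by its probe with the highest mean signal over the 8 arrays. Of the 66 genes, 50 were clustered genes (the Hist names: 6 for H1, 15 for H2A, 12 for H2B, 8 for H3 and 9 for H4) and 16 were variant genes (4 for H1, 10 for H2A and 2 for H3). The cells were a mouse pre-B line, 1676, with the genotype SLP-65-/- LAT-/-, so every group lacks both signalling adaptors. They carried an control construct or one encoding hsa-miR-125b-1, a human microRNA, had been selected with 1 µg/ml puromycin in medium with 7.5% FCS, and were kept in interleukin 7 (IL-7) or for 24 h without it. Each of the 4 groups had 2 arrays, from 2 independent experiments with separately made clones.

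Histones are the proteins around which DNA is wrapped. The clustered genes are transcribed mainly in S phase, and most of their messages end in a stem-loop in place of a poly(A) tail, which the stem-loop binding protein holds for processing, translation and decay. Variant genes such as H3f3a or H2afz lie outside the clusters, are expressed through the cell cycle and make polyadenylated messages. Some clustered genes can also make a longer, polyadenylated message by reading through the stem-loop, a form described in cells that leave the cycle. Labelling of the kind used here starts from a primer to poly(A).

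The stem-loop itself could be read in 6 of the member probes. These windows are shown because the clustered genes are grouped below by the place of their probe relative to it. Capitals mark the 16 bases of the stem-loop, whose 6 outer bases on each side pair in all 6 probes.
Hist2h2aa1: taaaaaGGCTCTTTTCAGAGCCaccca
Hist2h2bb: tacccaaaaGGCTCTTTTCAGAGCCacttt
Hist1h3a: ttaaccaaaGGCTCTTTTCAGAGCCaca
Hist1h3g: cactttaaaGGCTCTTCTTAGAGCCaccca
Hist1h3i: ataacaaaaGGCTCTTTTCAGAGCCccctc
Hist1h4m: tcaactaaaGGCCCTTTTCAGGGCCatcca
In 5 of them the probe stops within 6 bases of the stem-loop, whereas the Hist2h2aa1 probe runs on for 38 bases. The windows lie in the files' coordinates, whose genome build is not given in the sources used here, for Hist2h2aa1 at chr3:96049949-96049975 on the plus strand and for Hist1h4m at chr13:21903989-21904018 on the plus strand. By this sign, or by a probe start of at least 450 bases into the transcript (800 for H1), 34 clustered probes lay up to the stem-loop, 15 lay past it and 1 could not be placed. This split was made after values had been seen and carries no test.

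Many probes of clustered genes lie in coding sequence that the paralogs nearly share. The probes of 5 H2A genes that end at the stop codon are shown for that reason, with capitals for bases that differ from the Hist1h2ak probe or lie outside it.
Hist1h2ak: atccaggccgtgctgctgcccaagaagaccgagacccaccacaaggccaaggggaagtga
Hist1h2an: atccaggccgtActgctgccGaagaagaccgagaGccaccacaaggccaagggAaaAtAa
Hist1h2af: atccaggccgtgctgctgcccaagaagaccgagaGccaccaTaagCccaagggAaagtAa
Hist2h2aa2: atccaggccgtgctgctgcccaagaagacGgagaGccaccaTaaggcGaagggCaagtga
Hist1h2ah: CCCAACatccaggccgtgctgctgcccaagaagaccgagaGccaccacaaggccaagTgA
Hist1h2an differed from Hist1h2ak at 6 of 60 bases, Hist1h2af and Hist2h2aa2 at 5 of 60, and Hist1h2ah at 3 of the 54 bases they share. In the files' coordinates Hist1h2ak lies at chr13:21845304-21845363 on the minus strand and Hist2h2aa2 at chr3:96049837-96049896 on the plus strand. Among the 66 chosen probes, 20 pairs from 11 genes matched at 85% or more over at least 40 bases, and 8 of the 11 genes brightest among the probes up to the stem-loop (mean signal of at least 100000) were in such pairs. Signals of these H2A and H4 paralogs are therefore uncertain as to gene, and their values are not independent of each other. The H2A variant H2afj, with 45 of 50 bases like the Hist2h2ac probe, shares this limit.

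Some promoter motifs were also more common among the clustered genes. In the 250 bases before the annotated start (RefSeq, GRCm38.p6, both strands searched), 57 of the 66 genes had a sequence. The letters CCAAT were present for 36 of 43 clustered and 8 of 14 variant genes, against 34.5% of all 27025 promoters. By clustered family they were present for all H1, H2A and H2B genes with a sequence, 5 of 6 H3 and only 2 of 8 H4 genes. TATAAA was present for 22 of 43 clustered genes and 1 of 14 variant genes, against 13% of all. The octamer ATTTGCAT, a site known from H2B promoters, was present for 7 of 14 H2A and 5 of 9 H2B genes, for none of the 6 H1, 6 H3 or 8 H4 genes, and for 1.6% of all promoters. The window before Hist1h2aa, which holds all 3 motifs (in capitals, either strand), is shown because this testis H2A gene had the largest fall on withdrawal among the genes with all 3. It lies at chr13:23934187-23934436 on the plus strand of GRCm38.p6.
Hist1h2aa: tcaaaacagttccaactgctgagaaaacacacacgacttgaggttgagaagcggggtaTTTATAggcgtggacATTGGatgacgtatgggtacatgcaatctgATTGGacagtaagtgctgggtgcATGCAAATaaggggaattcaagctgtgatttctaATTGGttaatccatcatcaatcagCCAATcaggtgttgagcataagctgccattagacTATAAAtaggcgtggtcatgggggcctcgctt
Its divergent neighbour Hist1h2ba, the testis H2B gene, starts from the same stretch, so both windows hold many of the same bases. The windows of Hist1h2ae and Hist1h2bg also overlap. The H2A and H2B counts above therefore share some sites and are not independent. Hist1h2aa and Hist1h2ba both fell on withdrawal, as given below.

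Values are log2 processed signal minus the array's own 75th percentile, so 0 is the level of the 75th percentile and 1 unit is a doubling. With IL-7 that percentile stood at 325.3 to 379.4 signal units, and after withdrawal at 605.9 to 722.5. Probes well above background made up 47.82% to 54.88% of each array. Per the file headers, the 4 arrays with IL-7 share 1 scan date, annotation version and Feature Extraction version, and the 4 without it share others. Each set is called a scan set here, since no slide identifier was read. An effect of withdrawal and one of scan, software or anything else that sets the scan sets apart therefore cannot be told apart. The vectors were compared within a scan set. The pre-B markers Cd79a, Vpreb1, Igll1, Pax5 and Rag1 each passed the filter on dim probes described below for the histone genes. Of other blood and stromal markers, 3 of 10 myeloid, 4 of 10 T and NK, 2 of 7 erythroid and 6 of 8 stromal genes were above background on no array. The summed unscaled erythroid signal was 85.7 to 138.9 with IL-7 and 221.0 to 324.3 without, and the summed T and NK signal was 2218.1 to 2612.4 and 5221.5 to 6082.0. The part of these markers in the histone results was not tested. In such bulk samples fewer cells in S phase and less message per cell cannot be told apart.

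Testing required a probe well above background in both replicates of some group. That held for 61 of the 66 histone genes, 49 clustered and 12 variant, and 56 of these were well above background on all 8 arrays. The other 5 tested genes were Hist1h2al, Hist3h2bb-ps, Hist2h3c2-ps, H1fx and H2afb2-ps. Not tested were Hist1h1d, H1f0, H1fnt, H2afb1 and H2afy3. A change was called at an adjusted p under 0.05 (limma, Benjamini-Hochberg over 20663 genes).

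Withdrawal of IL-7 lowered most clustered histone genes. In control cells 32 of the 49 tested clustered genes fell, 6 rose and 11 were not called, with a median log2 change of -0.81 where all genes had -0.13. Over all genes 54.4% were called in this comparison, 34.1% lower and 20.3% higher. In miR-125b cells, on other arrays of the same scan sets, 33 fell and 6 rose, with a median of -0.65 against -0.11 for all genes. Of all genes 52.6% were called there, 32.1% lower and 20.5% higher. The calls were the same with both vectors for 32 genes that fell and 4 that rose. Both the size and the number of the falls rest on how arrays are scaled. The 75th percentile itself was higher without IL-7, as given above. Before scaling, the mean signal of Hist1h3d in control cells was 70274.3 with IL-7 and 74668.3 without it. That of Hist1h1e was 48307.6 and 36102.3. Under quantile normalization 22 clustered genes fell and 5 rose in control cells, and 18 fell and 5 rose in miR-125b cells, with medians of -0.31 and -0.17. Over all genes 51.7% were then called in control cells, 27.9% lower and 23.8% higher, and 47.1% in miR-125b cells, 24.4% lower and 22.7% higher.

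Most of the falls were at probes up to the stem-loop. Of those 34 genes, 31 fell and 2 rose in control cells, and the same numbers were called in miR-125b cells, with medians of -0.86 and -0.80. Of the 14 tested genes with a probe past the stem-loop, 1 fell and 4 rose in control cells and 2 fell and 4 rose in miR-125b cells. Their medians were 0.48 and 0.27. Over all genes 34.1% fell and 20.3% rose in control cells, and 32.1% and 20.5% in miR-125b cells, so the share that rose was not far from that of all genes. Under quantile normalization the median of the probes up to the stem-loop shrank to -0.36 with 20 lower and 2 higher in control cells, and to -0.34 with 16 lower and 0 higher in miR-125b cells. The probes past it then had 2 lower and 3 higher (median 0.41), and 2 lower and 5 higher (median 0.32). Median scaling gave them 4 lower and 1 higher in control cells (median 0.14) and 2 lower and 2 higher in miR-125b cells (median 0.01). With normexp they had 3 lower and 4 higher, and 6 lower and 5 higher, with a median of 0.04 in each. The direction of the probes past the stem-loop thus depends on the processing, whereas 31 probes up to it were lower with each vector under both of these settings. The classes also differ in signal. Probes past the stem-loop had a mean signal of at most 1889.5, and those up to it reached 388888.7. In miR-125b cells non-histone genes with a mean signal under 1000 had a median of 0.03, and those of at least 100000 had -0.64. The 8 histone genes under 1000 with a probe up to the stem-loop had -0.80. The difference between these classes was not tested.

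**Figure D1:**
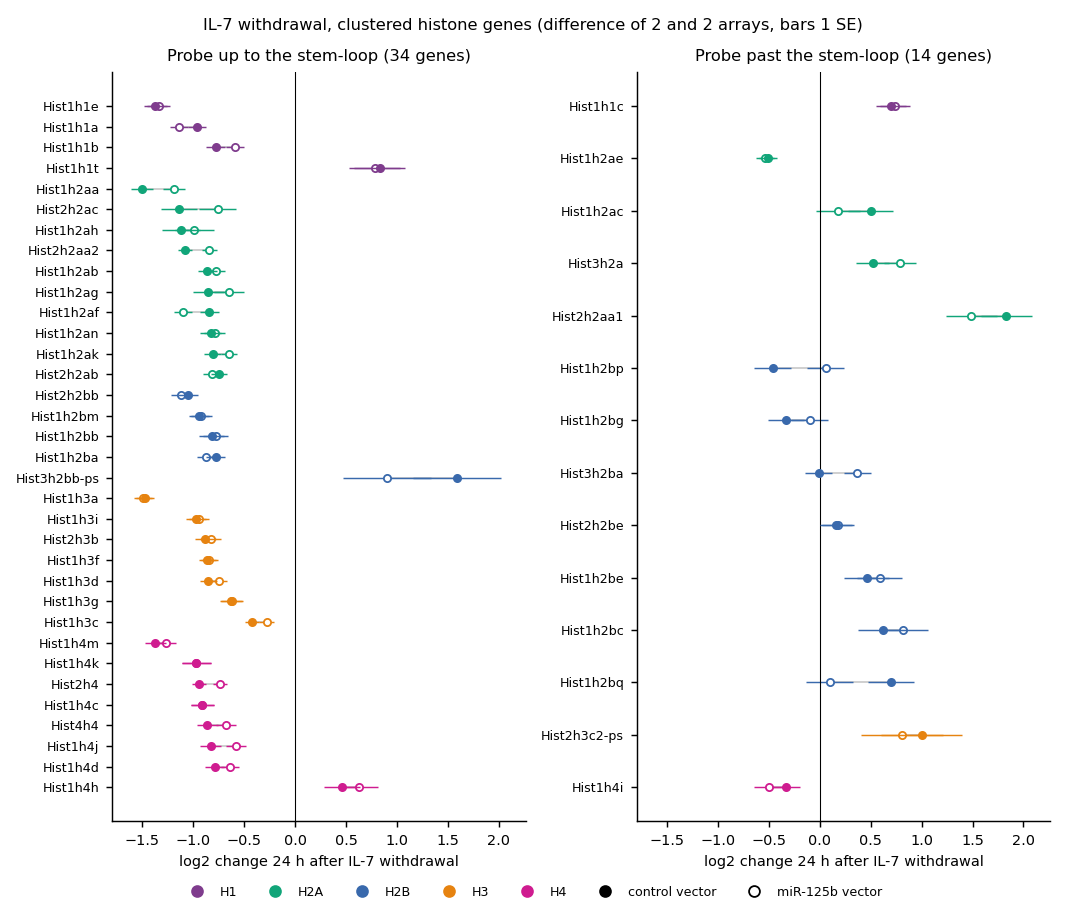
Log2 change 24 h after IL-7 withdrawal (x axis) for each tested clustered histone gene (y axis), with the probe up to the stem-loop on the left and past it on the right. Filled points are control cells, open points miR-125b cells, colours the histone family and bars 1 SE of the fitted difference of 2 and 2 arrays. Points on the left lie between -1.50 and 1.59, with Hist1h1t, Hist3h2bb-ps and Hist1h4h above 0 with both vectors. The medians on the right are 0.48 and 0.27.

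Linker histones, the H1 proteins that bind DNA between nucleosomes, moved both ways. Of 5 tested clustered H1 genes, 3 fell and 2 rose with each vector. Hist1h1e gave 7.23 and 7.15 in control cells with IL-7, 7.19 and 6.97 in miR-125b cells with IL-7, 5.74 and 5.91 in control cells without it, and 5.74 and 5.73 in miR-125b cells without it. All 4 arrays without IL-7 were below all 4 with it. Such a gap between the arrays of a vector with and without IL-7 is common, since 81.3% of all genes did not overlap in control and 79.5% in miR-125b cells. The fall was -1.37 ± 0.11 (SE, adjusted p = 0.0012, n = 2 and 2) in control cells, or 2.58-fold, and -1.34 ± 0.11 (adjusted p = 0.00162) in miR-125b cells. Hist1h1a gave 3.81 and 3.65, then 3.74 and 3.69 with IL-7 in control and miR-125b cells, and 2.83 and 2.71, then 2.57 and 2.57 without it, again with no overlap. Its change was -0.96 in control and -1.14 in miR-125b cells. Hist1h1b, the brightest H1 probe at a mean signal of 47717.7, went from 7.19 and 7.04 to 6.38 and 6.29 in control cells and from 6.85 and 6.77 to 6.27 and 6.17 in miR-125b cells. Its fall in control cells was -0.78, and -0.31 under quantile normalization.

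The linker genes called higher were Hist1h1c and Hist1h1t. Both lost the call with both vectors under median scaling, at 0.36 and 0.47 for Hist1h1c and 0.49 and 0.52 for Hist1h1t. Hist1h1c, whose probe starts 1342 bases into the transcript and so past the stem-loop, gave 0.23 and 0.31 in control cells with IL-7 against 1.01 and 0.93 without it. The miR-125b arrays gave 0.27 and -0.11 against 0.94 and 0.70. The groups did not overlap, and the rise was 0.70 ± 0.15 (adjusted p = 0.0107) and 0.74 ± 0.15 (adjusted p = 0.00963). Hist1h1t, the testis H1 gene, has a probe up to the stem-loop and was dim, at -3.25 and -2.91 in control cells with IL-7, -3.95 and -3.83 in miR-125b cells with IL-7, -2.16 and -2.34 in control cells without it, and -3.47 and -2.75 in miR-125b cells without it. Within each vector the arrays without IL-7 were above those with it, and the rise was 0.83 and 0.78 (adjusted p = 0.0343 and 0.0421), against 0.17 and -0.05, not called, with normexp.

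H2A genes made up the brightest group of clustered probes, and 11 of 15 fell and 2 rose with each vector. Their medians were -0.83 in control and -0.76 in miR-125b cells. Under quantile normalization 4 of 15 fell and 2 rose with each vector, with medians of -0.12 and -0.1. Hist1h2aa, for the testis form of H2A, had the largest fall of the family. It gave 0.61 and 0.76 in control cells with IL-7, 0.38 and 0.18 in miR-125b cells with IL-7, and between -0.92 and -0.72 on all 4 arrays without it. The change was -1.50 ± 0.11 (adjusted p = 0.00116) in control and -1.19 ± 0.11 (adjusted p = 0.00187) in miR-125b cells. Hist1h2ah, the brightest histone probe of all at a mean signal of 388888.7, gave 10.24 and 10.27, then 10.05 and 10.16 with IL-7, and 9.0 and 9.25, then 9.38 and 8.84 without it. It fell by 1.12 and by 0.99 with no overlap, but its change was -0.35 and -0.32, and not called, under quantile normalization.

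At 1 H2A locus on chromosome 3 the array holds a probe on each side of the stem-loop, 52 bases apart in the files' coordinates. They are named for different genes, Hist2h2aa1 and Hist2h2aa2, with separate transcripts. Hist2h2aa1, the probe that crosses the stem-loop and runs past it, gave -1.69 and -1.32 in control cells with IL-7, -1.89 and -2.13 in miR-125b cells with IL-7, 0.34 and 0.30 in control cells without it, and -0.18 and -0.87 in miR-125b cells without it. Every array without IL-7 was above every array with it, and the rise was 1.83 ± 0.25 (adjusted p = 0.0027), or 3.56-fold, and 1.49 ± 0.25 (adjusted p = 0.00545). Hist2h2aa2, the coding probe shown above, fell on the same arrays by 1.08 (adjusted p = 0.000904) and by 0.84 (adjusted p = 0.00171), or by 0.30 and, no longer called, by 0.17 under quantile normalization. Within each array the log2 ratio of the Hist2h2aa1 probe to the Hist2h2aa2 probe rose by 2.91 in control and by 2.33 in miR-125b cells. Scaling an array by 1 factor does not move this value. Other pairs differed. At Hist1h4i the ratio of the probe starting at base 23 to the one at 574, past the stem-loop, changed by -0.11 and 0.04. The ratio of the dimmer to the brighter Hist2h4 probe, both up to the stem-loop, rose by 0.8 and 0.4.

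Hist3h2a, whose probe also lies past the stem-loop, rose by 0.52 (adjusted p = 0.0385) and by 0.79 (adjusted p = 0.0102). Hist1h2ac, with a probe starting 2426 bases into the transcript, gave 0.50 and 0.18 and was not called. Hist1h2ae was the exception among the past-stem-loop H2A probes and fell by 0.51 and by 0.54 (adjusted p = 0.0064 and 0.00576).

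Of the 12 H2B probes, 7 lie past the stem-loop. In control cells 4 fell, 2 rose and 6 were not called, and in miR-125b cells 4 fell and 1 rose. Hist2h2bb gave 4.78 and 4.87 in control cells with IL-7, 4.37 and 4.38 in miR-125b cells with IL-7, 3.9 and 3.65 in control cells without it, and 3.21 and 3.31 in miR-125b cells without it. It fell by 1.05 and by 1.12 with no overlap. Hist1h2bm, the brightest H2B probe at 10407.4, gave 4.99 and 5.07, then 4.67 and 4.85 with IL-7, and 4.18 and 4.00, then 3.87 and 3.81 without it, a fall of 0.94 and 0.92. The 4 H2B genes that fell, Hist1h2ba, Hist1h2bb, Hist1h2bm and Hist2h2bb, were the 4 with a coding or stem-loop probe other than the pseudogene Hist3h2bb-ps.

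Hist3h2bb-ps was well above background only on the 2 control arrays without IL-7, at -3.69 and -4.09. It was not well above background at -5.05 and -5.90 in control cells with IL-7, at -5.46 and -6.51 in miR-125b cells with IL-7, or at -5.26 and -4.90 in miR-125b cells without it. Since it passed the filter only through the group where it is high, its place among the 6 genes called higher in control cells supports nothing, and its change stood at -0.16 with normexp background correction. Hist1h2bc, with a probe past the stem-loop, rose by 0.82 (adjusted p = 0.0309) in miR-125b cells and gave 0.62 (adjusted p = 0.0696) in control cells. Hist1h2bq gave 0.70 (adjusted p = 0.0467) in control and 0.10 in miR-125b cells, and the change in control cells turned negative with normexp. Its probe bears another name, Gm13646, in the annotation of the scan set without IL-7.

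H3 genes mostly fell. Of the 8 tested, 7 fell with each vector, by 0.42 to 1.47 in control cells. The other, Hist2h3c2-ps, past the stem-loop, gave 1.0 (adjusted p = 0.0769) and 0.81 (adjusted p = 0.138). Its name is that of a pseudogene, but RefSeq lists the gene as protein coding. Hist1h3a, whose probe ends 3 bases after the stem-loop, gave 0.40 and 0.40 in control cells with IL-7, 0.19 and 0.30 in miR-125b cells with IL-7, -1.0 and -1.13 in control cells without it, and -1.29 and -1.19 in miR-125b cells without it. The fall was -1.47 ± 0.09 (adjusted p = 0.000792), or 2.77-fold, and -1.49 ± 0.09 (adjusted p = 0.000907), with -1.49 and -1.53 under quantile normalization. Hist1h3i went from 1.72 and 1.69 to 0.86 and 0.62 in control cells and from 1.42 and 1.37 to 0.45 and 0.46 in miR-125b cells. Hist2h3b, named Hist2h3c1 in the other version of the array annotation, went from 5.56 and 5.59 to 4.79 and 4.59 and from 5.29 and 5.21 to 4.48 and 4.35. Hist1h3d, the brightest H3 probe at 70931.3, went from 7.73 and 7.73 to 6.96 and 6.80 and from 7.46 and 7.48 to 6.75 and 6.69. In each of these 3 genes no array without IL-7 reached an array with it. The smallest H3 change was that of Hist1h3c, -0.42 and -0.28.

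Of 9 H4 genes, 7 fell and none rose in control cells, and 8 fell and 1 rose in miR-125b cells. Under quantile normalization 4 fell in control and 3 in miR-125b cells, and none rose. Hist1h4m gave 0.53 and 0.56 in control cells with IL-7, 0.34 and 0.41 in miR-125b cells with IL-7, -0.79 and -0.86 in control cells without it, and -1.02 and -0.76 in miR-125b cells without it. The fall was -1.37 ± 0.10 (adjusted p = 0.00117) and -1.27 ± 0.10 (adjusted p = 0.00167), and -1.38 and -1.30 under quantile normalization. Hist1h4k, the brightest H4 probe at 211171.2, went from 9.37 and 9.40 to 8.49 and 8.34 and from 9.12 and 9.13 to 8.36 and 7.96. Hist2h4 went from 9.15 and 9.21 to 8.28 and 8.2 and from 8.86 and 8.93 to 8.15 and 8.15. For both, the groups did not overlap, and for both the change lost its call under quantile normalization, at -0.23 and -0.34 for Hist1h4k and -0.18 and -0.08 for Hist2h4. Hist1h4h, with a probe up to the stem-loop, was the H4 gene that rose, by 0.63 (adjusted p = 0.0313) in miR-125b cells, with 0.46 (adjusted p = 0.0776) in control cells. That call was lost under quantile normalization (0.53), median scaling (0.36), normexp (0.19) and in the deposited table. Hist1h4i, past the stem-loop, gave -0.33 (adjusted p = 0.0938) and -0.50 (adjusted p = 0.0284).

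The size of these falls has to be read against signal strength. Among genes that are no histone genes and had a mean signal of at least 100000, 477 in all, the median change on withdrawal in control cells was -0.70, and 94.1% were called lower. The 11 histone genes of that brightness with a probe up to the stem-loop had a median of -0.86, and all 11 fell. Under quantile normalization, which gives every array the same distribution, the bright non-histone genes had a median of 0.02, and the 11 histone genes had -0.12 with 1 of 11 lower. The 23 dimmer genes with such a probe had a median of -0.86 with 20 lower, and kept -0.69 with 19 lower under quantile normalization. In miR-125b cells the 23 went from -0.83 with 20 lower to -0.69 with 15 lower, and the 11 bright ones from -0.78 to -0.10.

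**Figure D2:**
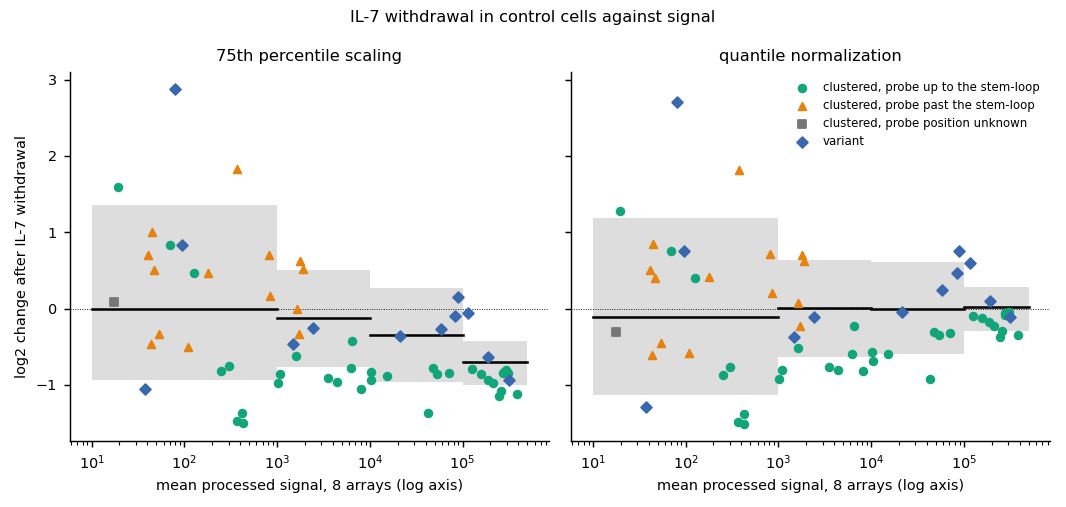
Log2 change after IL-7 withdrawal in control cells (y axis) against mean processed signal over the 8 arrays (x axis, log scale), with arrays scaled to their 75th percentile (left) or by quantile normalization (right). Points are the 61 tested histone genes, black lines the median of other genes in 4 signal classes, and grey bands their 10th to 90th percentile. In the brightest class the other genes' median moves from -0.70 on the left to 0.02 on the right, and the median of the 11 brightest histone genes moves from -0.86 to -0.12, against -0.86 to -0.69 for the 23 dimmer ones.

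Variant genes gave a mixed picture. In control cells 7 of 12 tested fell and 2 rose, and in miR-125b cells 6 fell and 2 rose, with medians of -0.26 and -0.28. Under quantile normalization the balance turned, with 2 lower and 6 higher in control cells and 3 lower and 6 higher in miR-125b cells. H1fx, for the linker variant H1X, was dim with IL-7. It gave -4.66 and -5.76 in control cells with IL-7, -4.97 and -4.55 in miR-125b cells with IL-7, -2.38 and -2.28 in control cells without it, and -2.10 and -1.95 in miR-125b cells without it. With IL-7 only 1 array of each vector was well above background, and all 4 were without it. It passed the filter only through the groups where it is high, so its differences of 2.88 and 2.74 are given as a description. They were 2.70 and 2.50 under quantile normalization and 0.74 and 0.89 with normexp.

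H1foo, the oocyte linker gene, was dim and rose by 0.83 (adjusted p = 0.013) and 0.74 (adjusted p = 0.02), calls lost with normexp at 0.27 and 0.15. Its values were -3.0 and -2.58 in control and -3.10 and -3.26 in miR-125b cells with IL-7, and -1.79 and -2.13 and then -2.56 and -2.33 without it. Within each vector the arrays with and without IL-7 did not overlap. At their chosen probes the 2 genes of H3.3, the H3 variant laid down outside replication, stayed within a narrow range. H3f3a gave 7.41 and 7.39, then 7.48 and 7.15 with IL-7, and 7.56 and 7.54, then 7.52 and 7.34 without it, a change of 0.15 and 0.12 that was not called. H3f3b gave 7.15 and 7.05, then 6.90 and 6.93 with IL-7, and 6.87 and 6.78, then 6.67 and 6.63 without it. That change was -0.27 (adjusted p = 0.0251) and -0.26 (adjusted p = 0.0301), and it turned to 0.24 and 0.25 under quantile normalization. Other probes differed under the main scaling. The second H3f3a probe went from 7.42 to 7.17 in control and from 7.25 to 7.06 in miR-125b cells. A second H3f3b probe went from 4.27 to 4.48 and from 4.07 to 4.27, and another from -0.92 to -1.15 and from -1.04 to -1.2.

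H2afz, for H2A.Z, a variant found at promoters, fell by 0.63 (adjusted p = 0.00359) and 0.45 (adjusted p = 0.0111), but stood at 0.10 and 0.22 under quantile normalization. Its arrays gave 9.02 and 8.93, then 8.75 and 8.80 with IL-7, and 8.24 and 8.46, then 8.34 and 8.30 without it. H2afv, for the second H2A.Z protein, gave 8.0 and 7.94, then 7.87 and 7.63 with IL-7, and 7.93 and 7.89, then 7.78 and 7.64 without it, and was not called. H2afx, for the H2A.X that is phosphorylated at DNA breaks, gave 7.48 and 7.42, then 7.29 and 7.11 with IL-7, and 7.37 and 7.34, then 7.39 and 7.42 without it, and was not called either. Both, with H3f3a, were called higher under quantile normalization, by 0.60 for H2afv, 0.47 for H2afx and 0.76 for H3f3a in control cells.

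H2afj, bright at a mean signal of 318147.1 and close in sequence to clustered H2A genes, gave 9.96 and 9.88, then 9.69 and 9.73 with IL-7, and 9.07 and 8.91, then 8.97 and 8.71 without it. It fell by 0.93 and 0.87 with no overlap, and stood at -0.11 and -0.16, not called, under quantile normalization. Its second probe, which starts 1664 bases into the transcript and was fitted as a row of its own, gave -0.01 (adjusted p = 0.923) in control and -0.28 (adjusted p = 0.0225) in miR-125b cells. H2afy, for macroH2A1, gave 5.71 and 5.48, then 5.62 and 5.66 with IL-7, and 5.19 and 5.27, then 5.16 and 5.38 without it. It fell by 0.36 and 0.37 (adjusted p = 0.0419 and 0.0407), but 1 of its other probes, fitted as a row of its own in an analysis added after the data were seen, rose by 0.47 in control cells (adjusted p = 0.0143 over 29836 probes). H2afy2, for macroH2A2, gave 1.80 and 1.84, then 1.74 and 1.89 with IL-7, and 1.41 and 1.30, then 1.49 and 1.23 without it. It fell by 0.46 and 0.45 (adjusted p = 0.0175 and 0.0194), and kept -0.37 and -0.39 under quantile normalization.

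The remaining variants with values here are the H2afb genes, of testis type, and the dim H1 genes H1fnt and H1f0. RefSeq lists H2afb1 as H2al2a. H2afb2-ps gave -2.83 and -3.09 in control cells with IL-7, -3.79 and -3.70 in miR-125b cells with IL-7, -3.94 and -4.11 in control cells without it, and -3.98 and -4.12 in miR-125b cells without it. It fell by 1.06 (adjusted p = 0.00183) in control cells, where no array overlapped, and gave -0.31 (adjusted p = 0.078) in miR-125b cells. Its probe is dim, and only 1 of the 2 control arrays without IL-7 was well above background. The probe named H2afb3-ps in only 1 version of the annotation lies on chromosome 17 in the files, while the gene is on X in RefSeq, so its gene is uncertain. It gave 2.53 and 2.51, then 2.39 and 2.39 with IL-7, and 2.23 and 2.30, then 1.99 and 2.06 without it, a fall of 0.25 and 0.37. H2afb1 was well above background on 2 arrays and gave -4.96 to -4.55 with IL-7 and -5.50 to -4.29 without it. H1fnt was above it on 1 array, with a range of -7.27 to -4.82 over all 8. H1f0, the linker variant of resting cells, was above background on no array, at -7.39 to -6.35.

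**Figure D3:**
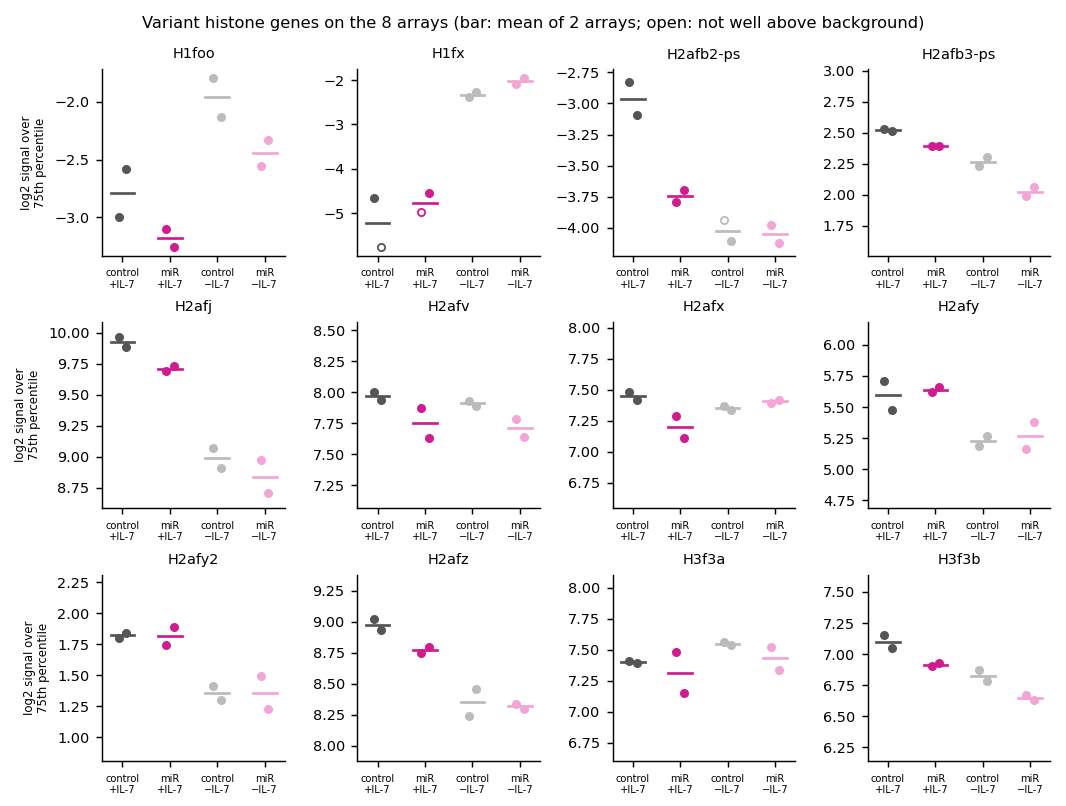
Log2 processed signal over the array's 75th percentile (y axis) of the 12 tested variant histone genes on all 8 arrays, by group (x axis). Points are arrays, open where the probe was not well above background, and bars the mean of 2 arrays. H1fx rises from between -5.76 and -4.55 with IL-7 to between -2.38 and -1.95 without it, while H3f3a stays between 7.15 and 7.56.

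The vectors were compared next, within each scan set. The mature sequence of mouse miR-125b-5p is shown for the agent that sets these groups apart (RefSeq, GRCm38.p6), with its seed, bases 2 to 8, in capitals.
mmu-miR-125b-5p: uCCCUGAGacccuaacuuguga
The match to the seed, CTCAGGG, is in none of the 81 histone probes, which says nothing of the rest of the messages. With IL-7 the median change over 61 tested genes was -0.22, against -0.04 for all genes, and 58 of the 61 values were below 0, as were 56.7% of all genes. Only H2afb2-ps was called, at -0.78 ± 0.12 (adjusted p = 0.0418), where 2.6% of all genes were called, 1.47% lower and 1.13% higher. Its call was lost in 16 of 18 other settings, with adjusted p from 0.0419 to 0.192. At an unadjusted p under 0.05 there were 23 of 61, against 20.7% of all genes.

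Without IL-7 the median was -0.17 against -0.01 for all genes, and 52 of 61 values were below 0, as were 51.7% of all genes. Under median scaling 25 of 61 were below 0, with a median of 0.02 against 0.18 for all genes, so the direction without IL-7 depends on the scaling. Called lower were 3 genes, Hist1h2ac, Hist2h2ab and Hist2h2bb, and none higher, where 6.43% of all genes were called, 3.49% lower and 2.93% higher. Averaged over both conditions 11 of 61 were lower and none higher, with a median of -0.19 against -0.03, while 15.9% of all genes were called, 8.62% lower and 7.3% higher. Scaling to the array median put all genes at 0.13 in the average and the histone genes at -0.04, with 4 called. Leaving out any 1 of the 8 arrays reduced the 11 to between 3 and 6.

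Hist1h2ac, an H2A gene whose probe lies past the stem-loop, had the largest difference between vectors. It gave -3.11 and -3.46 in control against -4.13 and -4.39 in miR-125b cells with IL-7, and -2.64 and -2.93 against -3.84 and -4.31 without it. All 4 miR-125b arrays were below all 4 control arrays. Within a condition the vectors did not overlap for 50.1% of all genes with IL-7 and 60.8% without it. The difference was -1.29 ± 0.22 (adjusted p = 0.032), or 2.45-fold, without IL-7, and -1.13 ± 0.15 (adjusted p = 0.0106) in the average, with adjusted p of at most 0.0447 in the 18 other settings. With IL-7 it was -0.97 (adjusted p = 0.0819). The probe is dim, at a mean signal of 46.9.

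Hist2h2ab, another H2A gene, gave -0.05 and -0.07 in control against -0.50 and -0.52 in miR-125b cells with IL-7, and -0.72 and -0.89 against -1.30 and -1.37 without it. The vectors did not overlap in either condition. The average difference was -0.49 ± 0.06 (adjusted p = 0.00791), called in all 18 other settings with adjusted p of at most 0.0403. Hist2h2bb, with the values given above, was lower by 0.48 in the average (adjusted p = 0.0138), a call lost in 1 of 18 settings (largest adjusted p = 0.0573). Both genes lie in the cluster on chromosome 3.

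The other 8 calls in the average were less firm, each lost in 8 or more of the other settings. They were Hist1h1t at -0.84, Hist1h2bp at -0.61, H2afb2-ps at -0.40, Hist1h4j at -0.34, Hist1h2af, Hist1h3i and Hist2h3b at -0.30 each, and Hist1h2ab at -0.27. A second probe of H2afv, dimmer than the chosen one, was lower by 0.68 in the average (adjusted p = 0.0218) when every probe was fitted by itself, and the chosen H2afv probe gave -0.21 and was not called.

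**Figure D4:**
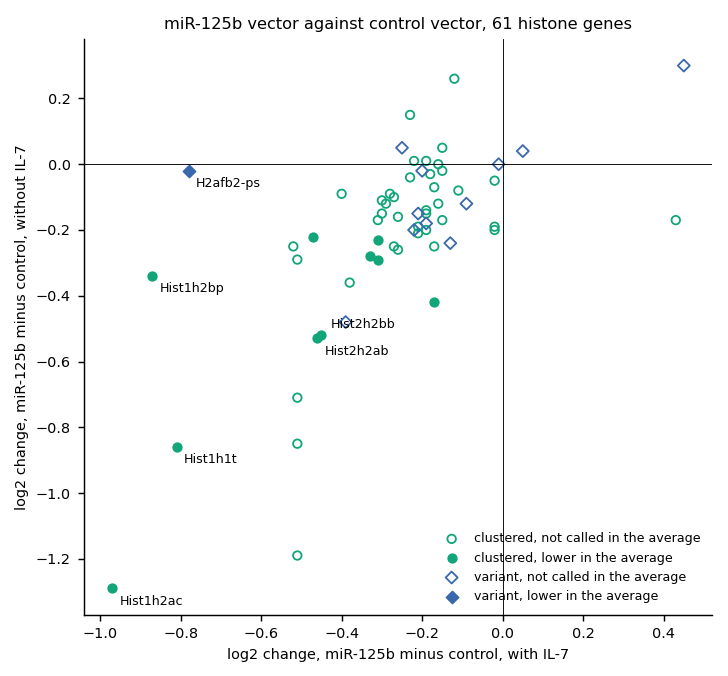
Log2 change of miR-125b over control cells with IL-7 (x axis) and without it (y axis) for the 61 tested histone genes. Filled symbols were called lower in the average of both conditions. With arrays scaled to their 75th percentile most points lie below 0 on both axes (under median scaling 25 of 61 do without IL-7), and Hist1h2ac stands at -0.97 and -1.29.

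**Figure D5:**
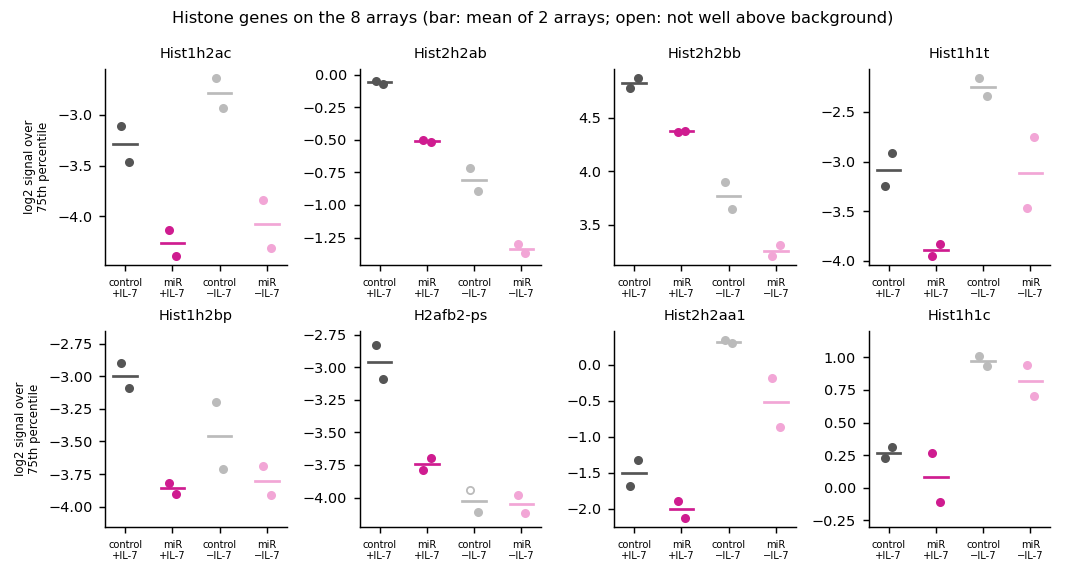
Log2 processed signal over the array's 75th percentile (y axis) of 8 histone genes on all 8 arrays, by group (x axis), with open points where the probe was not well above background and bars for the mean of 2 arrays. Hist1h2ac and Hist2h2ab are lower in miR-125b cells in both conditions, and Hist2h2aa1 and Hist1h1c are higher without IL-7.

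The response to withdrawal was then compared between the vectors. By limma 0 of 61 histone genes differed, 2 of 61 had an unadjusted p under 0.05 (5.8% of all genes), and none of the 18 other settings called a histone gene. Over all genes 0.0% were called. The median difference was 0.04 over the histone genes and 0.02 over all genes. The largest was that of the dim H2afb2-ps probe, 0.76 ± 0.17 (adjusted p = 0.583).

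Genes that act on histones were read from 2 lists. Of 18 tested genes for histone message processing and transcription, 5 rose and 6 fell on withdrawal in control cells and 3 rose and 6 fell in miR-125b cells, shares near the 34.1% lower and 20.3% higher of all genes in control cells and the 32.1% and 20.5% in miR-125b cells. Papola, a poly(A) polymerase, fell by 1.23 (adjusted p = 0.00192) and Cpsf3, the endonuclease that cuts pre-mRNA ends, by 0.63 in control cells, and Zcchc6, a terminal uridylyl transferase, rose by 0.50. Between the vectors 5 were lower in the average and none higher, where 8.62% of all genes were lower, led by Zfp473, a U7 snRNP partner in histone message processing, at -0.57 (adjusted p = 0.0125), and by Hinfp, the activator of H4 genes, at -0.43 (adjusted p = 0.0121). Zcchc11, another uridylyl transferase, gave -0.41 and Eri1, an exonuclease that binds the stem-loop, -0.38.

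Of 24 chaperone and transport genes, 5 rose and 11 fell in control cells and 6 rose and 11 fell in miR-125b cells. Over all genes 20.3% rose and 34.1% fell in control cells, and 20.5% and 32.1% in miR-125b cells. The share that rose in control cells was near that of all genes. Ipo4, an importer of histones, fell by 1.29 (adjusted p = 0.00263), and Chaf1b, of the CAF-1 chaperone that acts at replication, by 1.08 (adjusted p = 0.00146). Atrx, which acts with H3.3, rose by 0.99 (adjusted p = 0.000936), and Asf1a, a chaperone of H3 and H4, by 0.90 (adjusted p = 0.00151). Under quantile normalization the list stood at 9 higher and 3 lower in control cells, and at 10 higher and 3 lower in miR-125b cells. Over all genes 23.8% were then higher and 27.9% lower in control cells, and 22.7% and 24.4% in miR-125b cells.

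Cell cycle genes were counted beside them. Of 28 tested S phase genes, 22 fell and none rose in control cells with a median of -0.58, and 19 fell in miR-125b cells with a median of -0.53. Gins1 (-0.91), Mcm6 (-0.89), Lig1 (-0.81) and Pcna (-0.81), of the replication machinery, fell the most. Of 16 mitosis genes, 4 fell and 1 rose in control cells and 5 fell and 1 rose in miR-125b cells. Over all genes 34.1% fell and 20.3% rose in control cells, and 32.1% and 20.5% in miR-125b cells. The share of mitosis genes that fell was no larger than that. Cdc20, an activator of the anaphase-promoting complex, fell by 0.52, and Cenpf, of the kinetochore, rose by 0.48 in control cells. Under quantile normalization 13 S phase genes fell and 2 rose in control cells, and 9 mitosis genes rose and 1 fell. In miR-125b cells 9 S phase genes then fell and 2 rose, and 9 mitosis genes rose and 0 fell. Over all genes 27.9% were then lower and 23.8% higher in control cells, and 24.4% and 22.7% in miR-125b cells. Between the vectors 3 of the 28 S phase genes were lower in the average and 2 higher. These shares are near the 8.62% lower and 7.3% higher of all genes. Ccne1, for the G1/S cyclin E1, gave -0.90 (adjusted p = 0.00298), Fen1, a flap nuclease, -0.57, and Rrm2, of ribonucleotide reductase, -0.28, while Gins2, of the replicative helicase, gave 0.42 and E2f1, an S phase activator, 0.23.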

How the data were processed

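RNA was measured on 8 single-colour Agilent arrays, 2 for each of 4 groups, and 100 ng of RNA was labelled per sample, per the labels. Per the file headers, each scanner file holds linear intensity values per spot (mean, background and a background-subtracted processed signal, with no normalization between arrays) and other marks of spot quality. A deposited table by the authors holds intensity values with 1 shared distribution. Its log2 values follow the scanner signal at r of at least 0.9993. Agilent Feature Extraction is 10.7.1.1 for all arrays per the submitters' processing notes, but 10.7.3.1 for those with IL-7 per the file headers. The genome build is not given in the sources used here, and 0 of the 81 histone probes lay inside their gene in GRCm38. No columns of other samples were found (0).

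Control spots and 58 non-uniform probes were left out, spots of a probe were averaged, and log2 signal was scaled to each array's 75th percentile. The brightest probe per gene name was chosen first, whether or not it passed the filter on dim probes. That filter asked for signal well above background in both replicates of some group, and 29836 of 55681 probes passed. Genes whose chosen probe failed it were dropped, which left 20663 genes. Names differ between the annotation versions of the scan sets for 16.0% of probes and for 8 of the 81 histone probes. Those were taken where either version gives a histone name. All 66 histone names matched RefSeq, 61 by accession. Differences were fitted in limma 3.58.1 (R 4.3.3), with a mean per group, 4 residual and 1.81 prior degrees of freedom, in 6 comparisons, two-sided, and tested on simulated data. The number of arrays limits precision. The SD of the log2 difference of replicates was 0.32 to 0.42. Every histone gene could be named. Per-array values are given for variant genes above background and, per clustered family, for the 3 called genes with the largest change and the brightest, and for up to 4 called genes per list their change. The members and lists were chosen with earlier results of these data known. Alternatives were background correction, scaling, filters, variance trend, probe choice, the deposited table, a replicate block and each array left out. Replicate numbers did not pair the arrays (correlations of deviations from -0.101 to 0.116). A marker and the sums that hold it are not reported here.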

Additional observations from a re-analysis of the deposited data

How the results depend on the processing

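Each array was left out in turn, and the range of histone genes called was then 38 to 45 for withdrawal in control cells (47 with all arrays), 36 to 45 in miR-125b cells (47), 0 to 0 for miR-125b with IL-7 (1), 0 to 2 without IL-7 (3), 3 to 6 in the average (11) and 0 to 0 for the difference of the responses (0). With IL-7, 0 histone genes were called with a replicate block, quantile normalization, median scaling, no filter, only the 4 arrays compared or the authors' deposited table, 3 with a variance trend, and 4 when every array had to be above background. Without IL-7 the count was 1 with the replicate block and with median scaling, 0 with no filter and with only the 4 arrays, 7 with normexp and 6 with the trend. In the average it was 21 with normexp, 4 with median scaling, 3 with no filter, 20 when every array had to be above background, and 23 with the trend. The replicate block moved no other count of histone genes by over 1.5 times.

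Quantile normalization and the deposited table turned the withdrawal change of H2afz (0.10 in control and 0.22 in miR-125b cells under both), of H3f3b (0.24 and 0.25), and, in miR-125b cells, of Hist1h2ag (0.06) and Hist1h2ak (0.12). The deposited table gave 0.01 for Hist1h4d in miR-125b cells. With normexp, Hist1h2bq stood at -0.23 and Hist3h2bb-ps at -0.16 in control cells, and Hist1h1t at -0.05 in miR-125b cells. For these bright and dim probes the cause was not tested. The share of calls that were higher over all genes on withdrawal in control cells was 37.3%, 16.8% with median scaling (all-gene median -0.47), 25.4% with normexp and 46.0% with quantile normalization. In miR-125b cells it was 39.0%, 20.9% with median scaling and 25.2% with normexp. Between the vectors median scaling moved it from 43.5% to 64.8% with IL-7, from 45.6% to 79.0% without it and from 45.8% to 78.8% in the average.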
